A study of Saccharomyces cerevisiae with 18 samples.

Results

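Wild-type yeast cells at day 4 of chronological aging were compared with the same strain at day 1, by RNA-seq of polyadenylated RNA. The 6 wild-type libraries, 3 of each day, were chosen by their labels alone out of 18 libraries in the series, and 6320 of 6837 identifiers had enough counts to be tested. The strain was BY4742, a haploid laboratory strain of mating type alpha that lacks working HIS3, LEU2, LYS2 and URA3 genes. Cultures were started in YPD, a rich medium with glucose as its sugar, diluted on the following day and left without treatment until collection at day 1 or day 4. The other 12 libraries came from the same strain without SET2 (set2Δ) or without BRE1 (bre1Δ) at the same days. They share the statistical fit with the wild type, and so bear on the gene filter, the scaling and the spread. Otherwise they enter only where a day effect of the wild type is set against theirs. Set2 methylates lysine 36 of histone H3, and Bre1 attaches ubiquitin to histone H2B. The labels do not say whether the 3 replicates of a day were separate cultures, so the p values measure the spread between these samples, which may be technical. Each library is a bulk sample of a culture: fewer cells that carry a transcript and less of that transcript per cell cannot be told apart.

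In glucose medium, budding yeast first ferments the sugar to ethanol. When glucose is gone, the cells pass through the diauxic shift, in which they switch to respiration and live on the ethanol and acetate they had released. That switch needs the glyoxylate cycle and gluconeogenesis, which build sugars from acetate, and it is driven by the kinase Snf1 and the activators Cat8, Adr1 and Hap4, while the repressor Mig1 holds these genes down in glucose. Once carbon runs out the cells stop dividing and enter stationary phase, and the time for which they stay alive in that state is the chronological lifespan. Trehalose, glycogen, heat shock proteins, a thick cell wall and autophagy are classical features of the stationary cell.

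Library totals were 14405784 to 21558268 counts at day 1 and 23158487 to 25763314 at day 4. The replicates of day 4 lay closer together than those of day 1: their chi-square per gene was 4.09 to 8.41, against 26.4 to 37.7 at day 1, where counting error alone gives about 1. In the 4939 genes of at least 20 CPM the median SD of log2 CPM over replicates was 0.0934 at day 1 and 0.0488 at day 4. Marker genes that the genotype of BY4742 lacks were almost unread: LYS2 had 0 to 3 counts, LEU2 4 to 8 and URA3 0 to 6 in a library. HIS3, of which the strain keeps a part, was at 23.0, 28.8 and 22.6 CPM at day 1 and 29.2, 27.7 and 27.0 CPM at day 4. Alpha-specific genes were read in all 6 libraries, with MF(ALPHA)1, for the pheromone alpha factor, at 249, 308 and 282 CPM at day 1 and 181, 173 and 169 CPM at day 4. STE3, the pheromone receptor gene of alpha cells, was at 53.0, 56.0 and 53.0 CPM at day 1 and 43.2, 46.4 and 46.4 CPM at day 4, and STE2, that of a cells, was at 21.0, 25.4 and 19.2 CPM at day 1 and 14.2, 11.6 and 14.4 CPM at day 4. The a-specific gene STE6 was at 54.6, 56.9 and 59.2 CPM at day 1 and 38.4, 37.4 and 37.6 CPM at day 4. At day 1 that was above STE3, whereas the a-specific genes BAR1, MFA1, MFA2 and AGA2 were below STE3 in every library. Such levels are not corrected for gene length and do not by themselves tell the mating type. Neither deletion target was lost in these libraries, since SET2 was at 20.5, 22.4 and 24.2 CPM at day 1 and 26.1, 27.7 and 28.5 CPM at day 4 and BRE1 was at 77.2, 77.9 and 68.8 CPM at day 1 and 121, 120.3 and 126 CPM at day 4.

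In what follows, levels are normalised read counts in CPM (counts scaled by TMM library size), listed for replicates 1, 2 and 3 of each day. Changes are log2 fold changes of day 4 against day 1 ± SE, from edgeR's quasi-likelihood fit of all 18 libraries, 3 a day in each strain. The SE was derived from the test, as the absolute change divided by the square root of the F statistic. It is not a separate estimate of spread, and the SE of a difference need not follow from those of its 2 effects. A gene is said to have risen or fallen where its adjusted p was under 0.05. Reads are not divided by gene length, so a level can be compared between days and not between genes.

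Most of the transcriptome differed between the days. Of the 6320 genes tested, 4909 (77.7%) passed the threshold. Of these, 2348 (37.2% of the genes tested) rose and 2561 (40.5%) fell, with a median change over all genes of -0.02. With so many genes past the threshold, the size of a change separates genes more than the call does. At least 2-fold changes were found in 1191 genes (18.8%), of which 798 rose (12.6%) and 393 fell (6.22%). Rises reached further than falls: 277 genes rose and 78 fell at least 4-fold, and 33 rose and 3 fell at least 16-fold. Among coding genes the split was narrower, with 135 higher and 68 lower at least 4-fold. Under upper quartile scaling 679 genes rose and 512 fell at least 2-fold. With a filter of at least 10 CPM in 3 libraries these counts were 576 and 334. In 4919 genes (77.8%) the 3 libraries of one day all lay above the 3 of the other.

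**Figure D1:**
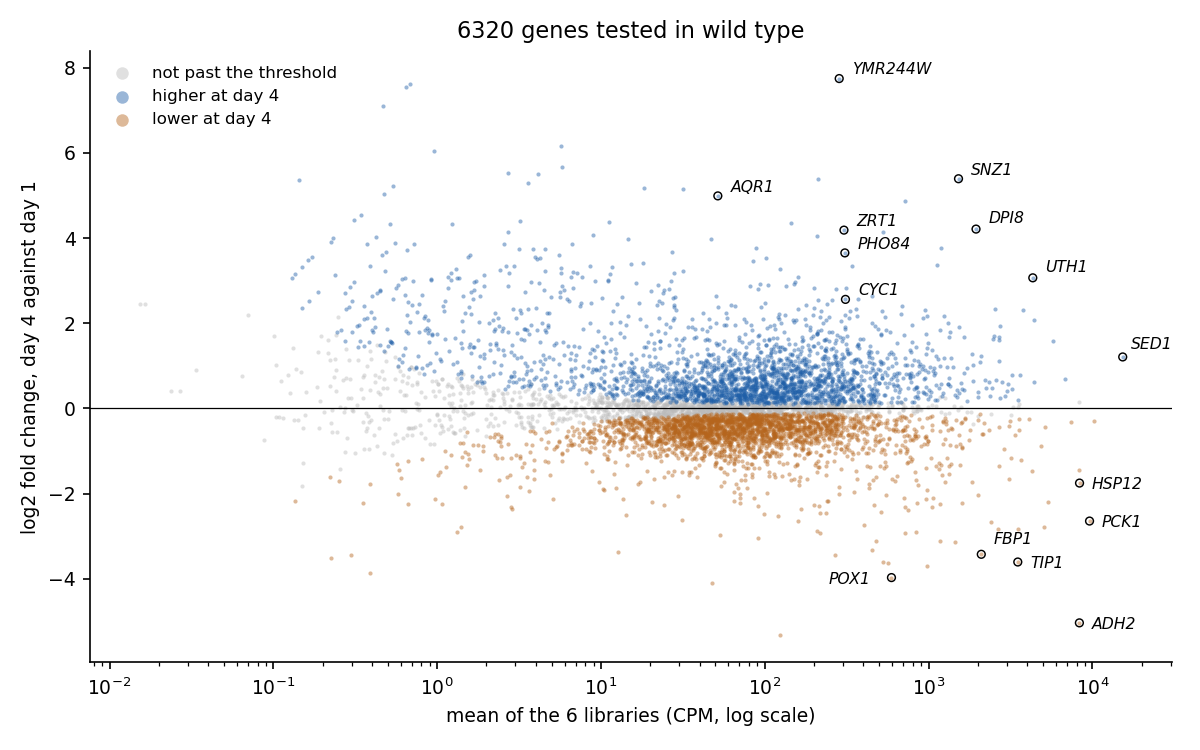
Each point is 1 of the 6320 genes tested, with the mean of the 6 wild-type libraries in CPM on a logarithmic horizontal axis and the log2 fold change of day 4 against day 1 on the vertical axis. Blue genes are higher and brown genes lower at day 4 (adjusted p under 0.05), and grey genes did not pass the threshold; named genes with rings include YMR244W at 7.74, SNZ1 at 5.39 and ADH2 at -5.03.

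The genes with the largest rise were of mixed kinds. YMR244W (YMR244W, chromosome XIII, 757250 to 758317), an uncharacterised gene, was at 2.75, 2.13 and 3.16 CPM at day 1 and 600.1, 563 and 536 CPM at day 4. That was a rise of 7.74 ± 0.17 (adjusted p = 2.58e-19). All 3 libraries of day 1 were near the lower end of detection and all 3 of day 4 were among well-read genes. SNZ1 (YMR096W, chromosome XIII, 458408 to 459301), for vitamin B6 synthesis in stationary phase, followed with 74.3, 68.5 and 69.7 CPM at day 1 and 2994, 3013 and 2914 CPM at day 4 (5.39 ± 0.12). LDS1, for a protein of lipid droplets at the spore wall, rose by 5.17 ± 0.16 from low levels. AQR1, for a plasma membrane exporter of short-chain acids and amino acids, was at 2.75, 3.90 and 2.56 CPM at day 1 and 97.7, 99.6 and 104 CPM at day 4 (4.99 ± 0.11). SKS1, for a kinase involved in the response to low glucose, was at 60.2, 53.5 and 57.8 CPM at day 1 and 1000.1, 1011 and 994 CPM at day 4 (4.13 ± 0.06). DPI8, a short gene on chromosome X, was at 228, 171 and 199.6 CPM at day 1 and 3823, 3649 and 3612 CPM at day 4 (4.21 ± 0.09). In each of these genes the groups were far apart and did not overlap. The same set held the short uncharacterised genes YKL068W-A (5.39 ± 0.15) and YER147C-A (3.98 ± 0.16), and RRT15 (4.87 ± 0.73), which lies in the ribosomal DNA region. YGL193C rose by 4.06 ± 0.08, but all of it is overlapped by the noncoding RNA RME2 and the strand setting of the counting is not given in the sources used here, so its reads cannot be told from those of RME2. Among the falls, PMA2, for a minor isoform of the plasma membrane proton pump, was at 471, 347 and 652 CPM at day 1 and 45.2, 46.5 and 44.6 CPM at day 4 (-3.43 ± 0.17). SDH9, a paralog of the succinate dehydrogenase flavoprotein gene, was at 1155, 905 and 1072 CPM at day 1 and 88.1, 84.5 and 82.5 CPM at day 4 (-3.62 ± 0.08). TIP1, for a cell wall mannoprotein, was at 5403, 6151 and 7864 CPM at day 1 and 564, 529.7 and 504 CPM at day 4 (-3.60 ± 0.12). The other large falls included ADH2, POX1, FAA2, FBP1, ICL2, CTA1, FOX2 and ATO3, which are described with their pathways.

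Ethanol, acetate and fatty acid genes fell as groups. Promoter stretches of 5 genes of this programme are shown because they hold a letter match to the carbon source response element. Of these genes 4 are for the use of ethanol or acetate, and the other is for catalase A. That element is the site of Cat8 and Sip4. It was searched as CCNNNNNNCCG on both strands in the 500 bases before each start codon, and its matches are in capitals. The sequences are from the R64 reference (the sacCer3 build of the files), all on the minus strand and written 5′ to 3′ as the gene reads: ADH2 at chrXIII:874613-874663 (where 2 matches overlap), ACS1 at chrI:45213-45263, FBP1 at chrXII:875194-875252 (also with 2 overlapping matches), ICL1 at chrV:287282-287332 and CTA1 at chrIV:969878-969928.
ADH2: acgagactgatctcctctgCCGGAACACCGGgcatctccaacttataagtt
ACS1: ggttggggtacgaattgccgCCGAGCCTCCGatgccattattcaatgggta
FBP1: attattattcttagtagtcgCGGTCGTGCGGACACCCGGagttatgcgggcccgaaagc
ICL1: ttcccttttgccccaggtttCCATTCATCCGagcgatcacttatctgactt
CTA1: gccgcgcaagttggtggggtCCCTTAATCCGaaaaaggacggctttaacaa
A match was present in 9 of 14 promoters of the glyoxylate cycle and gluconeogenesis list (64.3%), in 5 of 12 of the ethanol and acetate list (41.7%) and in 7 of 17 of the fatty acid oxidation list (41.2%). Of all 5822 promoters, 20.7% held a match. Among coding genes that fell at least 4-fold the share was 41.2% (28 of 68), and among those that rose at least 4-fold it was 24.4% (33 of 135). The falls of at least 4-fold include members of these lists, so the shares are not separate observations. At 2-fold the shares were 27.4% (100 of 365) for falls and 21.9% (124 of 565) for rises. The 1203 genes with a match had a median change of -0.058, and the 4619 without had -0.065. A match describes the letters of the promoter and is not a measure of binding.

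Of 12 genes for ethanol and acetate use, 10 fell and 2 rose, with a median of -1.39 against -0.02 for all genes. ADH2, for the dehydrogenase that oxidises ethanol to acetaldehyde, lies at YMR303C, chromosome XIII, 873291 to 874337. It was at 16006, 16182 and 16281 CPM at day 1 and 526, 484 and 471 CPM at day 4. The 3 libraries of day 1 lay close together and far above all of day 4, and the fall was 5.03 ± 0.14 (adjusted p = 7.63e-18). ALD4, for the mitochondrial aldehyde dehydrogenase that makes acetate, was at 7978, 9089 and 9171 CPM at day 1 and 1945, 1919 and 1846 CPM at day 4 (-2.20 ± 0.08), again with every library of day 1 above those of day 4. ACS1, for the acetyl-CoA synthetase used without glucose, was at 6424, 6362 and 5679 CPM at day 1 and 880.2, 879 and 854 CPM at day 4 (-2.82 ± 0.08). Its counterpart ACS2, used on glucose, fell less (-1.32 ± 0.09). Transporters fell as well: the acetate transporter gene ADY2 was at 9459.9, 9841 and 7374 CPM at day 1 and 1319, 1302 and 1279 CPM at day 4 (-2.77 ± 0.10), and its relative ATO3 (-3.11 ± 0.11) and JEN1, the importer of lactate and pyruvate (-1.47 ± 0.07), fell too. The rises were ACH1, for a mitochondrial CoA transferase (0.46 ± 0.11), and ALD3, a stress-induced aldehyde dehydrogenase (0.75 ± 0.08). Levels of ADH2 and ACS1 in every library are in the plot of single genes.

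The glyoxylate cycle and gluconeogenesis followed the same direction, with 11 of 14 genes lower, 3 higher and a median of -1.67. PCK1 (YKR097W, chromosome XI, 631152 to 632801), for the enzyme that starts gluconeogenesis from oxaloacetate, took the most reads in the mean of day 1. It led through replicate 1, and ADH2 had more reads in the other replicates of that day. This ranks reads without a correction for gene length, and not transcripts. PCK1 was at 19441, 14586 and 15632 CPM at day 1 and 2671, 2755 and 2529 CPM at day 4, and fell by 2.64 ± 0.11. FBP1, for the phosphatase that ends gluconeogenesis, was at 4221, 3523 and 3762 CPM at day 1 and 384, 357 and 333 CPM at day 4 (-3.42 ± 0.10). Of the glyoxylate cycle, the isocitrate lyase gene ICL1 was at 3355, 2419.6 and 2173 CPM at day 1 and 581, 579 and 544 CPM at day 4 (-2.22 ± 0.12) and the malate synthase gene MLS1 was at 5506, 3631 and 3410.2 CPM at day 1 and 666, 667 and 633 CPM at day 4 (-2.67 ± 0.12). In ICL1 and MLS1 replicate 1 was the highest library of day 1, and still no library of day 4 reached any of day 1. MDH2, for cytosolic malate dehydrogenase (-2.92 ± 0.08), IDP2, for cytosolic isocitrate dehydrogenase (-2.11 ± 0.07), and SFC1, for the carrier that exchanges succinate for fumarate across the mitochondrial membrane (-2.09 ± 0.09), fell too. The higher genes were PYC1 (0.67 ± 0.09), of a pyruvate carboxylase pair in which PYC2 fell (-0.66 ± 0.06), FBP26 (0.61 ± 0.05), whose enzyme breaks down the activator of glycolysis fructose 2,6-bisphosphate, and the regulator CAT8. The methylcitrate cycle, which removes propionyl-CoA, fell in 3 of 3 genes, with ICL2 lowest at 890.3, 859.9 and 714 CPM at day 1 and 82.3, 85.3 and 80.6 CPM at day 4 (-3.31 ± 0.10).

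Fatty acid oxidation, which yeast carries out in peroxisomes, had the lowest median of these lists, -2.32, with 15 of 17 genes lower and 0 higher. FAA2, which activates fatty acids at the peroxisome, was at 1026, 1029 and 857 CPM at day 1 and 74.4, 84.6 and 80.3 CPM at day 4 (-3.60 ± 0.10). The steps of the cycle itself all fell: POX1, the acyl-CoA oxidase, was at 1229, 1164 and 953 CPM at day 1 and 67.9, 74.7 and 70.9 CPM at day 4 (-3.97 ± 0.11), FOX2, the multifunctional enzyme of the steps after it, was at 2334, 2153 and 1866 CPM at day 1 and 247, 242 and 241 CPM at day 4 (-3.12 ± 0.12) and POT1, the thiolase, was at 1198, 1224 and 1157 CPM at day 1 and 242, 238 and 235 CPM at day 4 (-2.32 ± 0.08). The day 1 libraries exceeded those of day 4 by at least 4-fold in each of them. CTA1, for the catalase that removes the hydrogen peroxide made by POX1, was at 2708, 2696 and 2389 CPM at day 1 and 293, 303 and 292 CPM at day 4 (-3.13 ± 0.09). The enzymes for unsaturated fatty acids ECI1 (-2.88 ± 0.11) and DCI1 (-3.04 ± 0.10), the importers PXA1 (-1.86 ± 0.07) and PXA2 (-2.18 ± 0.09) and the carnitine acetyltransferase CAT2 (-2.21 ± 0.10) fell too. SPS19 (-0.22 ± 0.10, adjusted p = 0.0584) and the nudix hydrolase gene NPY1 (0.06 ± 0.09, adjusted p = 0.539) did not pass the threshold. The machinery that makes peroxisomes moved less: of 27 peroxin genes 17 fell and 9 rose, with a median of -0.37. PEX11, which drives peroxisome division, had the largest fall in that list and was at 391, 383 and 325 CPM at day 1 and 66.9, 66.7 and 67.6 CPM at day 4 (-2.45 ± 0.08), while PEX19, the receptor for peroxisomal membrane proteins, rose by 1.29 ± 0.06.

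The regulators of these genes moved in both directions. HAP4, for the activating subunit of the Hap complex that drives respiratory genes, was at 724, 774 and 788 CPM at day 1 and 1697, 1762 and 1723 CPM at day 4 (1.18 ± 0.05). ADR1, the activator of ADH2 and of peroxisomal genes, was at 789.5, 693 and 716 CPM at day 1 and 1396, 1439 and 1446 CPM at day 4 (0.96 ± 0.05). CAT8, the activator of gluconeogenesis, was at 611, 514 and 592 CPM at day 1 and 953, 973 and 959 CPM at day 4 (0.75 ± 0.06). All 3 were higher in each library of day 4 than in any of day 1. SIP4, which binds the same element as Cat8, was at 183, 176 and 154 CPM at day 1 and 73.9, 68.3 and 73.4 CPM at day 4 (-1.25 ± 0.09). PIP2, the partner of Oaf1 in fatty acid sensing, fell by 0.68 ± 0.05, and OAF1 itself did not pass the threshold (0.02 ± 0.05, adjusted p = 0.702). The repressor gene MIG1 was at 73.1, 103 and 69.3 CPM at day 1 and 310.1, 298 and 279.9 CPM at day 4 (1.85 ± 0.12) and MTH1, which keeps hexose transporter genes shut without glucose, was at 127, 146 and 119 CPM at day 1 and 470.1, 509 and 488 CPM at day 4 (1.90 ± 0.07). Of the 25 regulators listed, 11 rose and 7 fell, with a median of 0.11. SNF1, for the kinase, fell by 0.37 ± 0.05, and its activating subunit gene SNF4 did not pass the threshold (-0.05 ± 0.05, adjusted p = 0.355). Counts of mRNA do not show the activity of these regulators, which are controlled by phosphorylation.

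**Figure D2:**
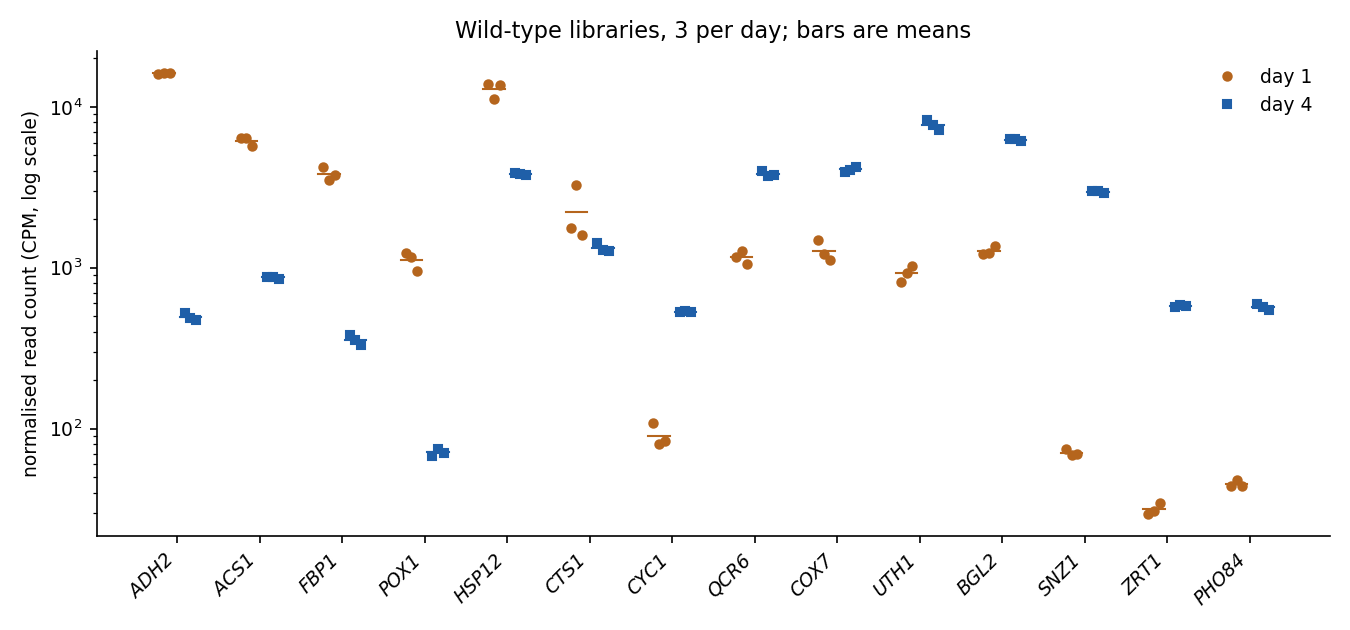
Points are the normalised read counts in CPM (logarithmic axis) of 14 genes in the 3 libraries of day 1 (brown circles) and of day 4 (blue squares), with bars at the means. The days do not overlap in any of these genes. The day 1 libraries of CTS1 spread from 1589.9 to 3255 CPM, and those of ADH2 from 16006 to 16281 CPM.

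Glycolysis and fermentation genes fell moderately, 12 of 18 lower and 4 higher, with a median of -0.47. TDH3 (YGR192C, chromosome VII, 882812 to 883810), the main glyceraldehyde-3-phosphate dehydrogenase gene of growing cells, was at 11680.4, 11052 and 13497 CPM at day 1 and 4692, 4379 and 4145 CPM at day 4 (-1.45 ± 0.11). Its isozyme genes went up: TDH2 was at 228, 237 and 282 CPM at day 1 and 457, 441 and 419 CPM at day 4 (0.82 ± 0.10) and TDH1, the isozyme of stationary cells, rose by 0.62 ± 0.13. 31.3% of the 50-base windows of TDH2 (stretches of its sequence) also occur at other loci, so part of its reads may belong to a paralog. Both subunits of phosphofructokinase, PFK1 (-0.94 ± 0.07) and PFK2 (-0.99 ± 0.08), fell about equally. Pyruvate kinase CDC19 did not pass the threshold (-0.19 ± 0.15, adjusted p = 0.242). Of the pyruvate decarboxylases, PDC6, which is used when sulfur is short, had the largest fall in the list (-1.68 ± 0.11). ADH1, the fermentative alcohol dehydrogenase, rose slightly (0.30 ± 0.09), a call that was lost under upper quartile scaling, while its paralog ADH2 had the large fall above. In the pentose phosphate pathway, the source of NADPH and ribose, 10 of 13 genes fell (median -0.60), with the ribose-5-phosphate isomerase gene RKI1 (-1.88 ± 0.06) and the transaldolase paralog NQM1 (-1.73 ± 0.10) lowest.

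Hexose transporter genes split evenly, 8 higher and 8 lower of 18, which include the sensors. HXT5, the transporter of non-growing cells, was at 3298, 2374 and 2947 CPM at day 1 and 8522, 8604 and 8548 CPM at day 4 (1.57 ± 0.09), and the days did not overlap. HXT2 (1.41 ± 0.08), HXT3 (1.04 ± 0.09) and HXT7 (1.02 ± 0.10) rose from lower levels, and HXT17 (-1.23 ± 0.09) and HXT13 (-1.78 ± 0.15) fell. HXT6 and HXT7 are near-identical copies, so the reads of either are uncertain. Genes of glycerol use fell: GUT1, the glycerol kinase, had -1.17 ± 0.07 and GUT2, the mitochondrial glycerol-3-phosphate dehydrogenase, had -1.29 ± 0.07. Of the genes of glycerol formation, GPP1, the phosphatase that makes glycerol, was at 67.9, 67.4 and 98.9 CPM at day 1 and 566, 556 and 530.2 CPM at day 4 (2.82 ± 0.11) and its paralog GPP2 rose by 1.06 ± 0.08. GPD1, for the dehydrogenase that acts before them, fell by 0.72 ± 0.06, and its paralog GPD2 did not pass the threshold (-0.12 ± 0.07, adjusted p = 0.118).

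Mitochondrial genes moved in opposite directions in different steps of respiration. In the tricarboxylic acid cycle 10 of 17 genes fell and 5 rose (median -0.30), and around pyruvate dehydrogenase 8 of 9 fell (median -0.68). The aconitase gene ACO1 was at 4258, 3349.7 and 3972 CPM at day 1 and 1489, 1532 and 1497 CPM at day 4 (-1.36 ± 0.07). FUM1, for fumarase, was at 1544, 1221 and 1437 CPM at day 1 and 555, 530.2 and 520.3 CPM at day 4 (-1.39 ± 0.07), and LSC2, for a subunit of succinyl-CoA ligase, fell by 1.28 ± 0.06. Succinate dehydrogenase was split: SDH3, a membrane anchor, was at 1907, 1652 and 1522 CPM at day 1 and 674, 683 and 663 CPM at day 4 (-1.33 ± 0.07), while the other 3 subunit genes rose, SDH1 by 0.48 ± 0.07, SDH2 by 0.29 ± 0.08 and SDH4 by 0.57 ± 0.06. MPC1, for the mitochondrial pyruvate carrier subunit used in all conditions, was at 417, 439.9 and 329.9 CPM at day 1 and 86.8, 84.7 and 90.1 CPM at day 4 (-2.18 ± 0.09). Enzymes that feed electrons from the outer face of the membrane fell as well: NDE2, an external NADH dehydrogenase, was at 2162, 1890.1 and 1789.8 CPM at day 1 and 411, 415 and 409 CPM at day 4 (-2.24 ± 0.06) and CYB2, the lactate dehydrogenase that reduces cytochrome c, was at 961, 964 and 661 CPM at day 1 and 162, 156 and 159.6 CPM at day 4 (-2.44 ± 0.10). In those of these genes that fell, no library of day 4 reached a library of day 1.

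Subunits of the respiratory chain and of ATP synthase rose. Of 13 genes of complex III, cytochrome c and its dehydrogenases 9 rose and 2 fell (median 0.69), and the falls were CYB2 and the other lactate dehydrogenase DLD1 (-1.35 ± 0.10), which deliver electrons to cytochrome c. Of 10 nuclear genes of cytochrome c oxidase 9 rose and 1 fell (median 0.97), and of 17 genes of ATP synthase and its inhibitors 14 rose and 1 fell (median 0.50). CYC1 (YJR048W, chromosome X, 526335 to 526664), the main cytochrome c gene, was at 108, 80.2 and 83.2 CPM at day 1 and 529, 537 and 527 CPM at day 4, a rise of 2.56 ± 0.09. The complex III subunit gene QCR6 was at 1173, 1270.5 and 1059.9 CPM at day 1 and 3987, 3708 and 3766 CPM at day 4 (1.71 ± 0.09) and QCR8 rose by 1.63 ± 0.08. COX7, of cytochrome c oxidase, was at 1478, 1218 and 1123 CPM at day 1 and 3955, 4069 and 4248 CPM at day 4 (1.68 ± 0.09). ATP18, for a small subunit of the membrane part of ATP synthase, was at 478, 452 and 402 CPM at day 1 and 1469, 1501 and 1519 CPM at day 4 (1.75 ± 0.06). Larger core subunits changed less: COR1 (-0.08 ± 0.06, adjusted p = 0.182) and RIP1 (0.12 ± 0.07, adjusted p = 0.1) of complex III did not pass the threshold, and the catalytic ATP synthase genes ATP1 and ATP2 rose by 0.42 ± 0.06 and 0.19 ± 0.06, the latter no longer past the threshold under upper quartile scaling. The exceptions were COX26 (-0.60 ± 0.07) and STF2 (-0.54 ± 0.06), a stabiliser of the inhibited ATP synthase that also responds to drying.

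The mitochondrial ribosome rose nearly as a whole, with 69 of 75 genes higher and 2 lower (median 0.57). The 2 lower genes were KGD4 (-0.52 ± 0.07), now known as a subunit of the 2-oxoglutarate dehydrogenase, and MRP8 (-0.26 ± 0.06), which is not established as a ribosomal subunit and is named after its value was seen. MRPL38 had the largest rise (3.54 ± 0.25), from 0.670 to 7.85 CPM in the mean. MRPL51 rose by 3.41 ± 0.13, from 3.14 to 32.8 CPM, and since another gene overlaps most of it, its reads cannot be told from those of that gene. MRPL19 rose by 2.09 ± 0.08 and MRPS17 by 1.74 ± 0.08. Among the importers of mitochondrial proteins 21 of 33 rose and 7 fell (median 0.61). TOM6, a small subunit of the outer membrane pore, was at 77.5, 78.5 and 68.5 CPM at day 1 and 379, 367 and 354 CPM at day 4 (2.29 ± 0.06), the motor subunits PAM16 and MGE1 rose by 1.65 ± 0.07 and 1.60 ± 0.05, and the receptor gene TOM71 (-0.86 ± 0.07) fell. COX1, a gene of the mitochondrial genome, whose transcripts carry no poly(A) tail, was at 10.1, 4.11 and 10.0 CPM at day 1 and 41.6, 46.1 and 53.2 CPM at day 4 (2.59 ± 0.19). Genes within its introns overlap most of it, so its reads are uncertain too.

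Gene length and RNA class moved with the day too. The median coding length was 321 bases in the cytochrome c oxidase list, 348 in the ATP synthase list and 660.0 in the mitochondrial ribosome list, against 1254 in the fatty acid oxidation list. Across 5824 coding genes the change and the length of a gene had a Spearman's rho of -0.248, a description over genes, which are not independent replicates. The median was 0.49 in genes of up to 300 bases and fell with each longer class to -0.61 in genes over 5000 bases. With the median of its own length class taken from each gene, an alternative chosen after seeing the data, the list medians were 0.45 instead of 0.69 for complex III and cytochrome c, 0.63 instead of 0.97 for cytochrome c oxidase, 0.33 instead of 0.50 for ATP synthase, 0.47 instead of 0.57 for the mitochondrial ribosome and 0.22 instead of 0.61 for import. The falls kept their sign in the same way: fatty acid oxidation had -2.22 instead of -2.32 and the glyoxylate cycle list -1.52 instead of -1.67. The part of gene length in these rises was not tested beyond this.

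RNAs that are not meant to be in a poly(A) library rose together. Of 74 snoRNA genes, which guide the modification of ribosomal RNA and carry no poly(A) tail when mature, 61 rose and 1 fell (median 1.93). They took 0.0398% to 0.0450% of the counts at day 1 and 0.199% to 0.230% at day 4. SNR4 went from 13.4 to 275 CPM in the mean (4.35 ± 0.11) and SNR189 was at 1.54, 1.40 and 2.29 CPM at day 1 and 64.4, 63.6 and 57.4 CPM at day 4 (5.15 ± 0.25). Some of them varied between the day 4 libraries, such as SNR128, which was at 1.13, 0.832 and 1.14 CPM at day 1 and 32.6, 18.3 and 13.2 CPM at day 4. The 4 snRNA genes of the spliceosome all rose (median 3.07). SCR1, the RNA of the signal recognition particle, was at 54.7, 74.1 and 74.1 CPM at day 1 and 679, 479 and 278 CPM at day 4 (2.82 ± 0.34), with the day 4 libraries spread over more than 2-fold and all above day 1. NME1, the RNA of RNase MRP, rose by 2.77 ± 0.22, RPR1, the RNA of RNase P, by 1.84 ± 0.14 and TLC1, the telomerase RNA, by 1.20 ± 0.07, all 3 named after their values were seen. The tRNA genes did not share this, with 17 higher and 13 lower of 71 (median -0.11). Counts of ribosomal RNA were 0.00422% to 0.00579% of a library at day 1 and 0.0152% to 0.0190% at day 4. The part of the poly(A) selection in these rises was not tested. Identifiers that matched no gene of the reference annotation also leaned upward, with 172 higher and 21 lower of 316 (median 1.12).

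**Figure D3:**
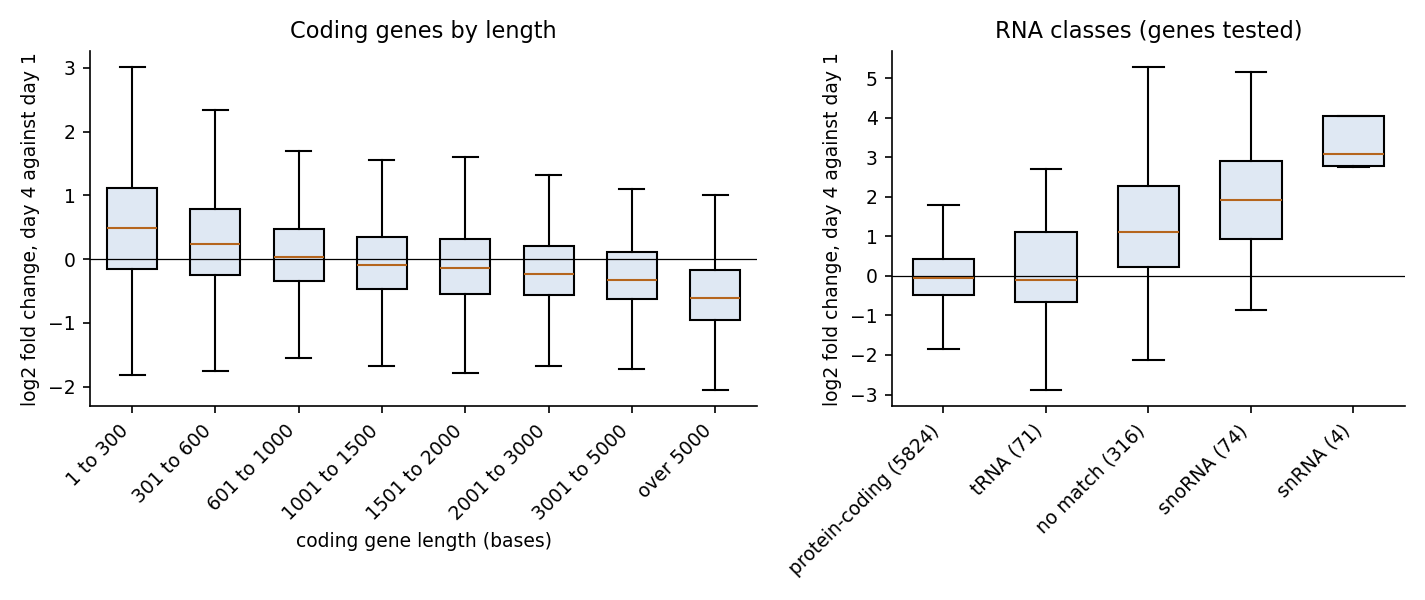
Boxes give the quartiles of the log2 fold change of day 4 against day 1, with whiskers to the farthest value within 1.5 interquartile ranges and no outliers drawn. The left panel has coding genes by length in bases, with medians from 0.49 in the shortest class to -0.61 in the longest, and the right panel has RNA classes with the number of genes tested, where snoRNAs (median 1.93) and snRNAs (median 3.07) lie above coding genes.

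Genes for the transport and storage of several nutrients rose. Promoter stretches of PHO84, VTC3 and ZRT1 are shown because they hold letter matches to sites through which phosphate or zinc shortage is read in yeast. The sites are CACGTG, the core of the site of Pho4 and also of Cbf1, and the zinc response element of Zap1, searched by its full palindrome. Each was searched on both strands in 500 bases before the start codon. Matches are in capitals, and the stretches lie at chrXIII:26189-26256 (minus strand), chrXVI:517304-517383 (minus strand) and chrVII:20754-20804 (plus strand) of R64.
PHO84: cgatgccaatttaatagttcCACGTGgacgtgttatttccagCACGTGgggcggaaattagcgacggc
VTC3: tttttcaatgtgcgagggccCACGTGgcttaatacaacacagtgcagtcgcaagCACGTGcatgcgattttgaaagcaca
ZRT1: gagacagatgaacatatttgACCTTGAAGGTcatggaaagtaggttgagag
CACGTG was present in 16 of 26 promoters of the phosphate list (61.5%) and in 6.22% of all 5822 promoters. The zinc element was found in 9 of all promoters (0.155%) and in 2 of 12 of the zinc list. The 9 genes that carry it had a median change of -0.54, so the rise of ZRT1 is not typical of them.

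ZRT1 (YGL255W, chromosome VII, 20978 to 22108), the high-affinity zinc importer of the plasma membrane, was at 29.5, 30.8 and 34.7 CPM at day 1 and 569, 585 and 577 CPM at day 4 (4.19 ± 0.06). ZAP1, for the zinc-sensing activator, rose by 1.07 ± 0.06 and ZRT3, which releases zinc from the vacuole, by 0.76 ± 0.04, whereas of 12 zinc genes 7 rose and 5 fell. PHO84 (YML123C, chromosome XIII, 24037 to 25800), the high-affinity phosphate importer, was at 44.1, 48.1 and 43.8 CPM at day 1 and 593, 571 and 549 CPM at day 4 (3.65 ± 0.09). A noncoding gene annotated across PHO84 makes its reads uncertain without the strand setting. PHO89, the sodium-coupled phosphate importer, was at 1277, 764 and 1381 CPM at day 1 and 4288, 4369 and 4368 CPM at day 4 (1.93 ± 0.13), with day 1 replicate 2 the lowest library. Polyphosphate synthesis rose in 3 of its subunits by nearly the same amount: VTC4, the catalytic subunit, was at 105, 101 and 112 CPM at day 1 and 269, 275 and 269 CPM at day 4 (1.35 ± 0.05), VTC3 was at 71.3, 66.2 and 70.1 CPM at day 1 and 176, 174 and 175 CPM at day 4 (1.34 ± 0.04) and VTC1 rose by 1.35 ± 0.06. The low-affinity carriers PHO90 (-1.21 ± 0.07) and PHO91 (-0.47 ± 0.07) fell. Over the whole phosphate list 14 of 26 rose and 10 fell (median 0.16), and under upper quartile scaling 11 rose and 11 fell, so the list as a whole had no lean under that scaling.

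Iron and copper uptake genes rose more evenly. Of 29 iron uptake genes 20 rose and 6 fell (median 0.51), and the element TGCACCC of Aft1 was present in 22 of 29 of their promoters (75.9%), against 2.34% of all promoters. FIT2, a cell wall mannoprotein that retains siderophores, was at 58.1, 61.4 and 56.9 CPM at day 1 and 265, 236 and 224 CPM at day 4 (2.04 ± 0.11). FRE1, the reductase of iron and copper, rose by 1.46 ± 0.06, the low-affinity importer FET4 by 1.48 ± 0.06 and the activator AFT1 by 0.75 ± 0.08. The heme oxygenase gene HMX1 (-0.80 ± 0.10) fell. Of 7 copper genes 5 rose and 0 fell: the copper importer CTR1 was at 142, 149 and 193 CPM at day 1 and 438, 467 and 483 CPM at day 4 (1.52 ± 0.08), FRE7, a copper-regulated reductase, rose by 1.68 ± 0.15, and CUP2 and CRS5, for the activator of metallothioneins and a metallothionein, rose by 1.54 ± 0.11 and 1.19 ± 0.06. ENA1, the gene for a P-type sodium pump, rose too (2.36 ± 0.07). It was at 68.6, 54.7 and 71.6 CPM at day 1 and 338, 338 and 323 CPM at day 4.

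Nitrogen and amino acid genes split by route. Amino acid permeases rose in 14 of 23 cases and fell in 7 (median 0.51). MUP3, a low-affinity methionine permease, was at 17.7, 20.8 and 19.3 CPM at day 1 and 142, 148 and 138 CPM at day 4 (2.88 ± 0.07), and the high-affinity permease MUP1 rose by 1.96 ± 0.12. The peptide importer PTR2 rose by 1.68 ± 0.11, BAP3, a permease of branched-chain amino acids, by 1.43 ± 0.08, and the sensor SSY1, which controls such permeases, by 1.20 ± 0.05. Genes under nitrogen catabolite repression fell more often, 18 of 30 lower and 6 higher (median -0.25). GAP1, the general amino acid permease (-1.60 ± 0.07), the proline permease gene PUT4 (-1.73 ± 0.09) and the genes for breakdown of GABA, UGA1 (-1.47 ± 0.11) and UGA2 (-1.95 ± 0.09), fell, while the ammonium permease MEP2 rose by 1.40 ± 0.09. Amino acid biosynthesis was mixed, with 24 higher and 27 lower of 63. CPA1, for carbamoyl phosphate synthesis toward arginine, was at 112, 128 and 132 CPM at day 1 and 792, 783 and 757 CPM at day 4 (2.64 ± 0.08), LYS20, the homocitrate synthase that starts lysine synthesis, rose by 1.74 ± 0.09 and its paralog LYS21 fell by 0.79 ± 0.06, though 37.8% of the windows of LYS20 occur at other loci. LEU1, for isopropylmalate isomerase of leucine synthesis, had the largest fall (-1.42 ± 0.18), at 613, 429 and 242 CPM at day 1 and 153, 166 and 159 CPM at day 4, with day 1 replicate 1 the highest library. PCL5, the cyclin that marks Gcn4 for destruction, was at 153, 188 and 149.9 CPM at day 1 and 2213, 2169.9 and 2249.9 CPM at day 4 (3.76 ± 0.08) and was chosen after its values were seen.

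Genes of vitamin B6 and thiamine did not move as a class. SNO1, the partner of SNZ1, was at 16.8, 16.5 and 16.6 CPM at day 1 and 86.9, 88.4 and 85.7 CPM at day 4 (2.39 ± 0.07), while the paralogs SNZ2 (-0.81 ± 0.10), SNZ3 (-0.54 ± 0.07), SNO2 (-0.76 ± 0.13) and SNO3 (-0.71 ± 0.15) fell. Of 18 thiamine genes 7 rose and 5 fell: the importer THI7 rose by 1.25 ± 0.07 and the permease gene THI73 by 1.73 ± 0.06, and the falls included THI5, THI11, THI12 and THI13, for synthesis of the pyrimidine part of thiamine, from -2.28 ± 0.14 in THI12 to -1.81 ± 0.11 in THI13. These 4 are near-identical copies, so the placing of reads that match several of them decides their counts. NAD synthesis genes fell in 10 of 16 cases, and BNA2, the first enzyme of synthesis from tryptophan, was an exception (1.43 ± 0.06). Biotin genes fell in 4 of 6 cases and rose in 0.

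Stress and storage genes were not higher as a whole at day 4. Of 37 general stress genes 9 rose and 17 fell (median -0.05), although the stress element AGGGG was present in 30 of 37 of their promoters (81.1%, against 34.4% of all promoters). HSP12 (YFL014W, chromosome VI, 107256 to 107585), for a small membrane-stabilising protein, was among the most-read genes at day 1 and was at 13806, 11156 and 13626 CPM at day 1 and 3867, 3842 and 3757 CPM at day 4 (-1.75 ± 0.09). The small heat shock gene HSP26 fell slightly (-0.29 ± 0.08), and HSP42, another member of that family, rose (0.61 ± 0.07). The stress activators MSN2 (0.77 ± 0.06), MSN4 (1.01 ± 0.08) and GIS1 (1.07 ± 0.04) rose. Of 31 heat shock and chaperone genes 17 rose and 12 fell (median 0.24). Within that list SSA3, an Hsp70 of stressed cells, was at 3546, 2669 and 3377 CPM at day 1 and 768, 817 and 779 CPM at day 4 (-2.02 ± 0.08), while its close relative SSA4 rose by 0.44 ± 0.08. The co-chaperones YDJ1 (1.41 ± 0.08) and SSE1 (1.18 ± 0.07) and the mitochondrial MDJ1 (1.20 ± 0.07) rose. The superoxide dismutase genes fell: SOD1, the cytosolic enzyme, was at 4842, 4249 and 4905 CPM at day 1 and 1566, 1449 and 1444 CPM at day 4 (-1.65 ± 0.07) and SOD2, the mitochondrial enzyme, fell by 1.55 ± 0.10. Catalase T, CTT1, fell by 0.85 ± 0.08, so both catalase genes were lower, and of 30 oxidant defence genes 12 rose and 13 fell. Trehalose (2 higher and 4 lower of 9) and glycogen genes (5 higher and 5 lower of 12) ran from -0.72 to 0.44 and from -1.28 to 1.12, with the trehalase gene NTH1 (0.44 ± 0.06) and TPS2, which makes trehalose (-0.72 ± 0.05), at the ends of the first.

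Genes known for stationary phase were divided, 7 higher and 10 lower of 19 (median -0.28). SPG5, needed for proteasome assembly in stationary phase, was at 1677, 1663 and 1738 CPM at day 1 and 6967, 7142 and 7156 CPM at day 4 (2.07 ± 0.06). SPG3 rose by 2.87 ± 0.09 and SPG4 by 0.78 ± 0.08, and SPG1 fell by 1.22 ± 0.11. IGO1, which protects mRNAs on entry into quiescence, rose by 1.14 ± 0.05, and its paralog IGO2 fell by 0.41 ± 0.06. The most-read genes changed places: at day 1 PCK1, ADH2, HSP12, TDH3, HSP26, SED1, ADY2 and ALD4 took the most reads, and at day 4 SED1, HSP26, GRE1, HXT5, HOR7, UTH1, SPG5 and TMA10 did. GRE1 did not pass the threshold (0.15 ± 0.10, adjusted p = 0.157), and TMA10 fell by 0.31 ± 0.06, so their places in the second list do not come from a rise.

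Genes of the cell wall rose in 26 of 46 cases and fell in 9 (median 0.53). UTH1 (YKR042W, chromosome XI, 519527 to 520624), of the SUN family of wall proteins, was at 811, 929.8 and 1025 CPM at day 1 and 8300.4, 7724 and 7157 CPM at day 4 (3.07 ± 0.11). BGL2, the main endo-beta-1,3-glucanase of the wall, was at 1218, 1230.3 and 1357 CPM at day 1 and 6300.2, 6285 and 6168 CPM at day 4 (2.30 ± 0.07). The glucan synthase subunit GSC2, used outside growth, was at 1485, 1211 and 1309 CPM at day 1 and 4030.1, 4139 and 4013 CPM at day 4 (1.61 ± 0.07), and its paralog FKS1 rose by 1.00 ± 0.06. SED1, the major wall mannoprotein of stationary cells, was at 8341, 8484 and 10902 CPM at day 1 and 22926, 21425 and 19778 CPM at day 4 (1.21 ± 0.11), the most-read gene of day 4. KRE9, for beta-1,6-glucan synthesis, rose by 1.20 ± 0.06 and CCW14, a wall mannoprotein, by 1.54 ± 0.07. The falls included TIP1, named above, and SUN4, of the same family as UTH1 (-1.55 ± 0.23). With day 1 replicate 1 left out the list had 26 higher and 12 lower, and under upper quartile scaling 26 higher and 14 lower.

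Daughter cell separation genes, which act in daughters after division, fell in 11 of 14 cases and rose in 2 (median -0.79). SCW11, for a glucanase, was at 367, 733 and 265 CPM at day 1 and 119, 105 and 118 CPM at day 4 (lower, adjusted p = 3.40e-07), DSE1 was at 1084, 1842 and 898 CPM at day 1 and 414, 369 and 406 CPM at day 4 (-1.69 ± 0.20) and the chitinase gene CTS1 was at 1774, 3255 and 1589.9 CPM at day 1 and 1422, 1287 and 1278 CPM at day 4 (-0.73 ± 0.20). Replicate 2 of day 1 was the highest library in each of these. Without it the list had 8 falls and 2 rises with a median of -0.46, and the change of SCW11 was -1.47, that of DSE1 -1.32 and that of CTS1 -0.34, which no longer passed the threshold (adjusted p = 0.0558). SWI5, for an activator of genes of late mitosis and G1, rose by 0.43 ± 0.09.

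DNA replication and nucleotide synthesis genes were lower in 23 of 32 cases and higher in 2 (median -0.36). The small subunits of ribonucleotide reductase had the largest falls: RNR4 was at 1537, 1399 and 1786 CPM at day 1 and 361, 358 and 362 CPM at day 4 (-2.13 ± 0.07) and RNR2 was at 835, 765 and 1041 CPM at day 1 and 214, 226 and 211 CPM at day 4 (-2.02 ± 0.08). The polymerase genes POL2 (-1.66 ± 0.07) and POL1 (-1.17 ± 0.06) fell as well. Cyclins and cell cycle regulators were mixed, 7 higher and 12 lower of 23: the G1 transcription factor subunits SWI4 (-1.11 ± 0.07) and SWI6 (-0.85 ± 0.09) fell, as did the G1 cyclins CLN1 (-0.50 ± 0.08), CLN2 (-0.46 ± 0.06) and CLN3 (-0.32 ± 0.07), while the mitotic cyclin CLB2 rose by 0.63 ± 0.13. Of 29 meiosis genes 7 rose and 11 fell. IME4, for the mRNA methyltransferase of meiosis, was at 245, 226 and 241 CPM at day 1 and 1127, 1132 and 1073 CPM at day 4 (2.23 ± 0.05), but the antisense RNA RME2 overlaps all of it, so its reads cannot be told from those of RME2. DMC1, the meiotic recombinase, was at 80.2, 111 and 93.5 CPM at day 1 and 12.2, 10.5 and 13.9 CPM at day 4 (-2.96 ± 0.16).

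Genes of translation did not fall as a block. Of 137 cytosolic ribosomal protein genes 59 rose and 38 fell (median 0.12), while under upper quartile scaling 43 rose and 53 fell with a median of 0. The 6 libraries gave these genes 2.30% to 2.88% of their counts. RPS30A rose by 2.16 ± 0.05, and RPL7A fell by 0.83 ± 0.07. Ribosome biogenesis genes had 35 higher and 32 lower of 83 (median -0.02), with IMP4, of the small subunit processome, at 14.4, 14.3 and 15.3 CPM at day 1 and 68.0, 71.5 and 69.2 CPM at day 4 (2.25 ± 0.07). Among initiation and elongation factors 19 of 38 rose and 14 fell. SUI1, which selects the start codon, was at 222, 229 and 205 CPM at day 1 and 1128, 1139 and 1179.6 CPM at day 4 (2.39 ± 0.05), and the beta subunit of eIF2, SUI3, rose by 1.62 ± 0.08. EFT2, for elongation factor 2, fell by 1.70 ± 0.09, though it and EFT1 are near-identical and their reads uncertain. RNA polymerase II genes rose in 10 of 12 cases and fell in 0, with RPB10 (1.53 ± 0.08) and RPO21, the largest subunit (1.04 ± 0.07), among them.

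Genes of ergosterol and fatty acid synthesis fell. In ergosterol synthesis 20 of 27 genes were lower and 3 higher (median -0.47). HMG1, for the rate-limiting reductase of the pathway, was at 262, 234 and 258 CPM at day 1 and 72.6, 72.5 and 70.5 CPM at day 4 (-1.81 ± 0.05) and ERG1, the squalene epoxidase, was at 203, 189.9 and 271 CPM at day 1 and 70.4, 67.0 and 69.2 CPM at day 4 (-1.68 ± 0.10), both with no overlap between the days. ERG4, the last enzyme, rose by 0.73 ± 0.07. Fatty acid synthesis was lower in 10 of 13 genes, with FAS1 (-1.08 ± 0.07) and FAS2 (-0.86 ± 0.08), the synthase, and ACC1, which makes malonyl-CoA (-0.81 ± 0.07). The acyl-CoA synthetase gene FAA4 was at 384, 398 and 421 CPM at day 1 and 73.2, 75.4 and 71.0 CPM at day 4 (-2.45 ± 0.06), whereas FAA1 rose by 0.58 ± 0.06. Sphingolipid synthesis had 10 higher and 5 lower of 20 (median 0.15), and storage lipid genes had 7 higher and 5 lower of 13. AUR1, for inositol phosphorylceramide synthase, was at 111, 115 and 104 CPM at day 1 and 514, 500.3 and 499 CPM at day 4 (2.20 ± 0.05), and the diacylglycerol acyltransferase gene DGA1 rose by 0.82 ± 0.05 and the lipase gene TGL3 by 1.12 ± 0.05.

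Vacuolar hydrolases fell in 10 of 12 cases and rose in 1 (median -0.69). LAP3, a cysteine aminopeptidase, was at 576, 556 and 531 CPM at day 1 and 183, 174 and 168 CPM at day 4 (-1.66 ± 0.07), and the aminopeptidase gene APE3 (-1.16 ± 0.07), the mannosidase gene AMS1 (-1.25 ± 0.06) and PRC1, for carboxypeptidase Y (-0.89 ± 0.07), fell too. AGGGG was present in 10 of 12 of their promoters. Autophagy genes were split, 11 higher and 14 lower of 29: the kinase gene ATG1 (1.40 ± 0.07), ATG8, for the protein of the autophagosome membrane (1.01 ± 0.06), and the pexophagy receptor ATG36 (1.78 ± 0.05) rose, and ATG17, the scaffold, fell (-1.01 ± 0.10). Of 36 proteasome genes 16 rose and 11 fell, in a narrow range from -0.58 to 0.77. In the secretory pathway ERO1, which forms disulfide bonds, was at 31.3, 38.7 and 32.3 CPM at day 1 and 268, 273 and 268 CPM at day 4 (2.97 ± 0.07).

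Most genes of histones and of their modification, which the deletions of the series touch, passed the threshold in wild type, as did 77.7% of all genes tested. Of 11 histone genes 8 rose and 1 fell (median 0.28), 6 and 3 under upper quartile scaling. HHT1, for histone H3, was at 409, 377 and 414 CPM at day 1 and 1145, 1204 and 1200.0 CPM at day 4 (1.57 ± 0.06), HTB1, for histone H2B, rose by 1.03 ± 0.06 and the linker histone HHO1 fell by 0.44 ± 0.07. Histones are short genes, and with the length classes taken out the median of the list was 0.05 instead of 0.28. In the list of the Set2 and Bre1 pathways 18 of 36 rose, 8 fell and 10 did not pass the threshold. Of all genes tested 37.2% rose and 40.5% fell. BRE1, for the ubiquitin ligase, rose by 0.71 ± 0.07, its partner LGE1 was at 198, 193 and 209.7 CPM at day 1 and 926, 879 and 855 CPM at day 4 (2.15 ± 0.07) and the ubiquitin-conjugating enzyme RAD6 was at 50.9, 55.3 and 49.6 CPM at day 1 and 161, 164 and 154 CPM at day 4 (1.62 ± 0.07), so all 3 parts of the H2B ubiquitination complex were higher at day 4. SET2 rose by 0.29 ± 0.09 (adjusted p = 0.00622) at low levels, a call that was lost under upper quartile scaling. The demethylase genes GIS1 (1.07 ± 0.04) and RPH1 (0.91 ± 0.05) rose. Of the Paf1 complex, which both pathways need, CTR9 (-1.04 ± 0.06) and CDC73 (-0.76 ± 0.05) fell and RTF1 (0.69 ± 0.05) and LEO1 (0.72 ± 0.07) rose, the last 3 named after their values were seen. These are mRNA levels and not levels of the proteins or marks.

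Several other lists held members that rose and members that fell. Sulfate assimilation and methionine genes had 14 higher and 13 lower of 34, with the sulfonate transporter gene SOA1 lowest (-1.39 ± 0.07). Purine and pyrimidine genes had 10 and 8 of 26, with URA1, for dihydroorotate dehydrogenase, lowest (-1.55 ± 0.06). Phospholipid synthesis had 8 and 10 of 21, with the inositol monophosphatase gene INM1 highest (1.99 ± 0.12) and CHO1, for phosphatidylserine synthase, lowest (-0.98 ± 0.07). The vacuolar ATPase had 4 and 8 of 14, from VMA2 (-0.83 ± 0.06) to VMA4 (1.31 ± 0.08), both of the part that splits ATP. Besides AQR1, the exporters had ATR1 (2.09 ± 0.04), for boron and drug export, and TPO2, for polyamines (1.76 ± 0.11), among 10 rises, and TPO4 (-1.34 ± 0.05) among 9 falls of 23 genes. In genes of galactose, maltose and sucrose use 5 rose and 10 fell of 18 (median -0.51), and IMA2, an isomaltase, was lowest (-1.13 ± 0.13).

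Signalling genes tied to lifespan were balanced, 11 higher and 11 lower of 27. PDE2, the high-affinity cAMP phosphodiesterase, was at 29.3, 33.8 and 27.5 CPM at day 1 and 120.2, 124 and 129 CPM at day 4, the largest rise in that list (2.03 ± 0.08). The TORC1 subunit LST8 rose by 1.15 ± 0.06, and the kinase genes TOR1 (-0.61 ± 0.05) and SCH9 (-0.22 ± 0.06) fell. Of the sirtuin list 5 rose and 5 fell, with SIR2 (-0.98 ± 0.08), the silencing deacetylase, and RIF1 (-1.40 ± 0.06) lower. The 4 alpha-specific genes all fell, and among 7 a-specific genes 4 fell and MFA1 rose by 1.39 ± 0.13. Genes within 30000 bases of a chromosome end leaned downward, 86 higher and 164 lower of 340 (median -0.26, against -0.05 farther in), and the 12 COS genes, which lie there, had 10 lower. Between chromosomes the medians ran only from -0.15 to 0.01. All 4 Ty4 genes tested fell (median -1.95) and 21 of 29 Ty1 genes did (median -0.51), but Ty copies are alike and their reads cannot be assigned firmly.

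Paralogs went the same way more often than opposite ways. Of all genes tested 37.2% rose and 40.5% fell, so opposite calls are common among any pairs of genes. The share for unrelated pairs was not computed. Of 92 pairs listed, 40 moved in the same direction and 27 in opposite directions, in 20 only 1 member passed the threshold and in 5 neither did. In 16 of the 92 pairs, 7 of them opposite, a member shares over 5% of its 50-base windows with other loci, so the split of reads between copies is uncertain there. TEF1 and TEF2, counted as opposite, share 92.5%. Besides the pairs named above, the thioredoxin peroxidases TSA1 (-0.76 ± 0.07) and TSA2 (0.58 ± 0.07) went opposite ways. So did the thioredoxins TRX1 (-0.55 ± 0.05) and TRX2 (0.56 ± 0.05) and the sterol acyltransferases ARE1 (0.70 ± 0.11) and ARE2 (-1.08 ± 0.06). The inositol transporters ITR1 (-0.91 ± 0.06) and ITR2 (0.28 ± 0.05) and the serine hydroxymethyltransferases SHM1 (-1.01 ± 0.06) and SHM2 (0.34 ± 0.07) split as well. The difference within a pair was not tested.

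A small number of genes was read at 1 day only. In 10 identifiers all 3 libraries of day 1 had 0 counts and each of day 4 had more than 3, and none showed the reverse. MET28, a co-activator of sulfur genes, had 9, 11 and 6 counts at day 4, ATG16, of the autophagy conjugation complex, had 6, 6 and 5, and YOR170W had 14, 14 and 9. A count of 0 allows up to 3 counts in a library, and with the deeper libraries of day 4 no fold is given for values this low. In 73 identifiers all 6 libraries had 0 counts.

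The wild-type day effect was set against that of each deletion strain by the difference between the effects, tested in the same fit. Both differences use the same 6 wild-type libraries and are not independent of each other. The effect differed from that of set2Δ in 4596 genes (72.7%), higher in wild type in 2396 (37.9%) and lower in 2200 (34.8%), and by at least 2-fold in 1627 (25.7%). It differed from that of bre1Δ in 4857 genes (76.9%), higher in 2329 (36.9%) and lower in 2528 (40%), and by at least 2-fold in 1898 (30%). The lists below are read against these shares.

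Fatty acid oxidation and glycolysis genes had medians of opposite sign in wild type and set2Δ. In the fatty acid oxidation list the median day effect was -2.32 in wild type and 0.73 in set2Δ, and 16 of 17 genes had a lower effect in wild type and 1 a higher one. For ADH2 the effect was -5.03 ± 0.14 in wild type, 3.27 ± 0.13 in set2Δ and -1.78 ± 0.12 in bre1Δ, and both differences passed the threshold (-8.30 ± 0.19, adjusted p = 1.18e-18 for set2Δ and -3.26 ± 0.17, adjusted p = 3.12e-13 for bre1Δ). The glycolysis list had medians of -0.47, 1.22 and -0.42 in the 3 strains in that order, with 16 of 18 genes lower in wild type than in set2Δ. Not all genes of carbon use followed this: for FBP1 the effects were -3.42 ± 0.10 in wild type and -3.30 ± 0.10 in set2Δ, with a difference of -0.12 ± 0.13, adjusted p = 0.388. For PCK1 they were -2.64 ± 0.11 in wild type, -2.52 ± 0.11 in set2Δ and -3.18 ± 0.11 in bre1Δ.

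The rise of respiratory subunits was not shared by either deletion. Cytochrome c oxidase genes had medians of 0.97 in wild type, -0.64 in set2Δ and -1.03 in bre1Δ, and 9 and 10 of 10 genes had a higher effect in wild type. ATP synthase genes had medians of 0.50, -0.64 and -0.72, with 16 and 17 of 17 higher in wild type. The mitochondrial ribosome had 0.57, -0.48 and 0.02, with 73 and 53 of 75 higher. CYC1 rose by 2.56 ± 0.09 in wild type and had -2.04 ± 0.09 in set2Δ and -0.49 ± 0.10 in bre1Δ (differences 4.60 ± 0.12 and 3.05 ± 0.13). Cytosolic ribosomal protein genes went the other way, with medians of 0.12, 1.25 and 0.96 and 113 and 108 of 137 genes lower in wild type. The snoRNAs had medians of 1.93, 0.10 and -0.52. Other RNAs without a poly(A) tail were not compared as classes between the strains. The part of such RNAs in the differences of these lists was not tested.

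Daughter cell separation and thiamine genes were among the largest differences. SCW11, which fell in wild type, had a day effect of 3.36 ± 0.26 in bre1Δ (difference -5.36 ± 0.36, adjusted p = 2.50e-11), and 12 of 14 genes of the list were lower in wild type than in bre1Δ. THI4, for the thiazole of thiamine, had 0.46 ± 0.13 in wild type and 8.94 ± 0.19 in set2Δ (difference -8.48 ± 0.22, adjusted p = 7.00e-18). Stationary phase genes had medians of -0.28 in wild type, 0.36 in set2Δ and -1.26 in bre1Δ, and 16 of 19 had a higher effect in wild type than in bre1Δ. YMR244W, the largest rise of wild type, had 5.51 ± 0.19 in set2Δ and 1.07 ± 0.14 in bre1Δ (differences 2.23 ± 0.36 and 6.68 ± 0.23). SKS1 had -0.82 ± 0.05 and 0.95 ± 0.05 in the deletions (differences 4.96 ± 0.08 and 3.18 ± 0.08), and UTH1 had -1.08 ± 0.11 and 0.94 ± 0.10 (differences 4.15 ± 0.15 and 2.12 ± 0.15).

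**Figure D4:**
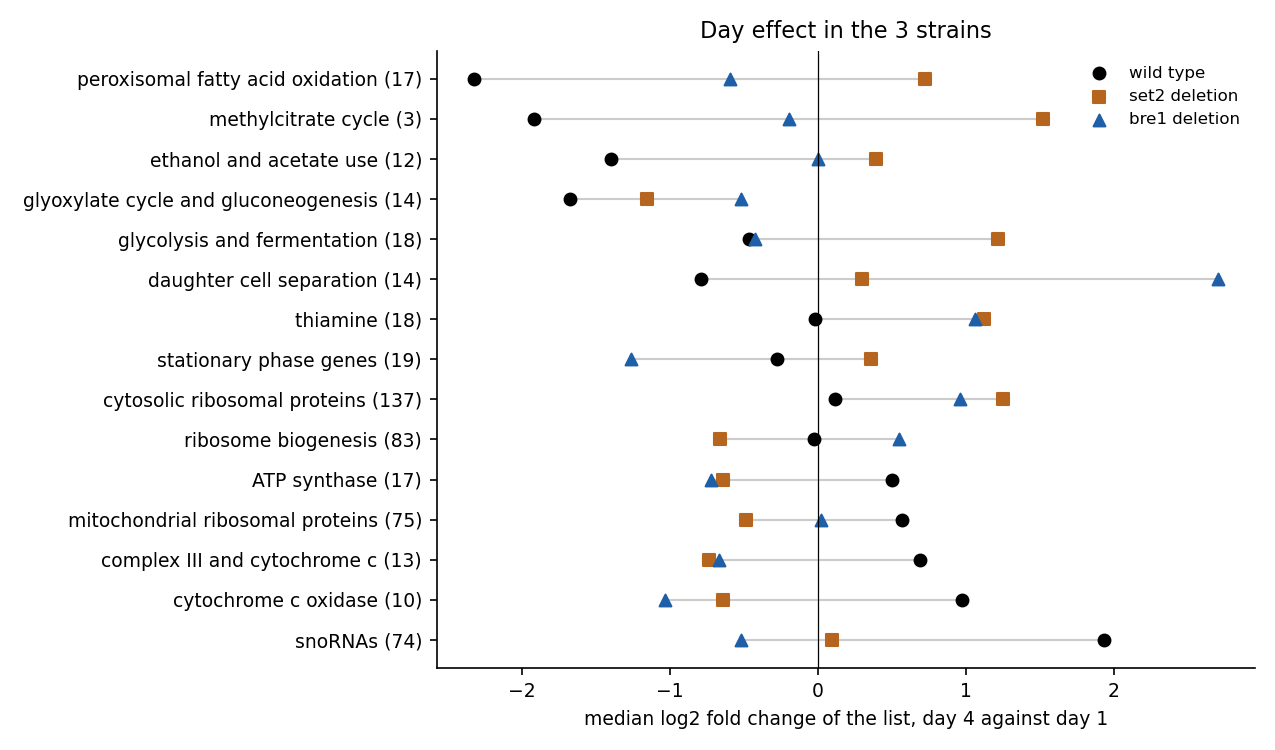
For 15 gene lists, with the number of genes tested, the median log2 fold change of day 4 against day 1 is drawn in wild type (black circles), set2Δ (brown squares) and bre1Δ (blue triangles). Fatty acid oxidation lies at -2.32 in wild type and 0.73 in set2Δ, and cytochrome c oxidase at 0.97 in wild type, -0.64 in set2Δ and -1.03 in bre1Δ.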

How the data were processed

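RNA was extracted with Trizol from BY4742 cultures at day 1 and day 4, and poly(A) libraries were sequenced on an Illumina NovaSeq, per the labels. The deposited table holds raw read counts per gene of 18 libraries, and a second table holds FPKM values made by the authors per kilobase of gene and per library size. The submitters' processing notes list FastQC 0.11.8, cutadapt 2.6, STAR 2.7.0b, HTSeq 2.0.2, R 4.2.0, DESeq2 1.36.0 and the build sacCer3. Strand and multimapping settings are not given in the sources used here.

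The counts were fitted with edgeR 4.0.16 (TMM scaling, filterByExpr, quasi-likelihood F test, 6 groups of 3) in R 4.3.3, and p values were adjusted over 6320 genes by Benjamini-Hochberg at a threshold of 0.05. The deletion strains enter that fit for the gene filter, the scaling, the shared spread and the differences between day effects. With the 6 wild-type libraries alone, 6172 genes were tested and 4703 passed the threshold. The code was tested on simulated data. Of 6837 identifiers, 5926 matched the R64 annotation by locus tag, 99 by symbol and 6 by synonym, 806 did not match, and 4 emptied lines were left out. Promoters were the 500 bases before the start codon. Shared windows were 50-base stretches of a gene found elsewhere in the genome.

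Gene lists, 77 in all, the comparison and the rules were chosen with earlier results of these data known, and most list members were assigned from general knowledge of yeast. Lists have counts and medians and no test. Genes were named by rule: label checks, the 15 largest rises and falls of at least 20 CPM without overlap, in each list the 6 smallest p values and the extremes (any member where a list has up to 31), paralogs, the 8 largest differences from each deletion in each direction, the 8 most-read and the 6 most variable genes of each day. Others are marked as chosen after their values were seen, and a few items that the rule names are not reported here. Alternatives were DESeq2 1.42.0, other scalings and filters, limma 3.58.1 on log2(FPKM + a pseudocount), leaving out each library and a replicate block.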

Additional observations from a re-analysis of the deposited data

Results flagged for a closer look

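The wild-type day effect differed from that of set2Δ in 4596 genes and from that of bre1Δ in 4857, by the test of the difference in edgeR's fit. Both counts share the wild-type libraries. Large differences in each direction, all past the adjusted threshold, are given as wild type minus deletion in log2.

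Against set2Δ the wild-type effect was higher for the exporter gene AQR1 (5.81), the kinase gene SKS1 (4.96), the snoRNA SNR189 (4.66), the cytochrome c gene CYC1 (4.60), the wall protein gene UTH1 (4.15), YKL068W-A (4.13), the pheromone gene MF(ALPHA)1 (3.87) and YER147C-A (3.83). It was lower for the thiamine genes THI5 (-10.36), THI12 (-9.56), THI4 (-8.48), THI13 (-7.96) and THI11 (-7.12), for ADH2 (-8.30), for the pyruvate decarboxylase gene PDC6 (-6.22) and for ATO3 (-5.98). THI5, THI11, THI12 and THI13 are near-identical copies and count as 1 observation rather than 4. MF(ALPHA)1 fell by 0.68 ± 0.08 in wild type, against a day effect of -4.55 ± 0.09 in set2Δ.

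Against bre1Δ the wild-type effect was higher for SNR189 (7.01), YMR244W (6.68), RRT15 (6.58), YKL068W-A (5.92), YFR052C-A (5.38), the snoRNAs SNR8 (5.26) and SNR35 (5.09) and YMR173W-A (5.03). It was lower for the daughter separation genes SCW11 (-5.36), DSE2 (-5.13) and DSE1 (-4.50), for ATO3 (-4.62), the wall gene SUN4 (-4.55) and THI12 (-4.51). Most of the genes higher here are snoRNAs or short genes, the classes whose share of reads rose with the day in wild type.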

How the results depend on the processing

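The count of 4909 genes changed ranged from 4538 to 5016 over the alternatives, and no gene called here was called in the opposite direction under any of them. DESeq2 called 4929 genes, 4869 of them shared with edgeR. The differences from set2Δ ranged from 4267 to 4638 genes and those from bre1Δ from 4511 to 4889. Under upper quartile scaling the median of all genes was -0.145 instead of -0.02, so changes smaller than that shift, and the splits of the ribosomal protein, phosphate, histone and cell wall lists, depend on the scaling. The deviations of same-numbered libraries of the 2 days had correlations of -0.143, -0.114 and -0.152, and those of different numbers 0.0287 to 0.0969. Deviations from a mean of 3 cancel within a day, so these values depend on each other. They do not settle whether equal replicate numbers mark paired libraries. With the replicate block 4894 genes were called over 18 libraries and 4575 in the 6 wild-type libraries, 4589 differed from set2Δ and 4856 from bre1Δ. Without replicate 2 of day 1 the daughter separation list had 8 falls instead of 11. No named gene turned its direction under an alternative. Gene length, overlapping genes without a known strand setting and near-identical copies are the limits on single values.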
